A study of Rattus norvegicus with 30 samples.

Results

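The course of osteogenesis in bone marrow mesenchymal stem cells (BMSCs) of the rat between 12 and 72 h was described from 6 of the 30 sequenced samples, namely the 3 samples of osteogenesis at 12 h (OS 12 h) and the 3 at 72 h (OS 72 h), chosen by their labels. Cells came from the femurs and tibias of 3 female Sprague Dawley rats aged 3 weeks, which carried no stated genetic alteration. At passage 2 they were moved from a standard growth medium with serum to a commercial osteogenic medium, whose composition is not given in the sources used here. The same cells at 0 h (3 samples), and cells at 12 and 72 h of adipogenesis (AD) and chondrogenesis (CH) in the matching commercial media (3 samples each), served for comparison. Each sample was pooled from 3 cultures before RNA isolation. The labels do not tie a sample to a rat, so that the p-values below measure the spread between pooled samples, which may be technical. That spread was estimated within all 10 groups of the 30 samples together, including less uniform adipogenic ones. An SE can therefore exceed the scatter among the 6 osteogenic samples. Uninduced cells were sampled at 0 h, and of later uninduced cultures none was analysed here, so that the effects of time in culture and of the medium cannot be told apart.

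BMSCs are adherent stromal progenitors that can form bone, fat and cartilage cells. Osteogenic commitment is classically driven by the transcription factors (TFs) Runx2 and Sp7, and is followed by the secretion of a collagen-rich matrix, by alkaline phosphatase activity and, weeks later, by mineral. Proliferation typically declines as cells of this lineage mature. Genes of DNA replication are typically driven by E2F factors in late G1 and S phase, whereas genes of mitosis are repressed in resting cells by the DREAM complex through the cell cycle genes homology region (CHR) and are activated from G2 onwards, often with NF-Y bound to CCAAT boxes.

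Gene levels were measured as CPM, read counts scaled to a common library total with no correction for gene length, so levels are compared between samples and not between genes. Total reads were 6564527 to 6690194 at OS 12 h and 6409225 to 6702790 at OS 72 h, and 3 reads per library, the floor of detection used here, equalled 0.448 to 0.468 CPM. This floor covers counting error only. The genes in the files held 68.7 to 71.4% of the total at 12 h and 56.5 to 59.5% at 72 h, with the remainder in genes not analysed here. Replicates of both groups correlated with Pearson's r of 0.991 to 0.994 over the tested genes, and all 6 pairs differed beyond counting noise. Of 9999 gene names, 4363 had at least 1 CPM in at least 3 of the 30 samples and were tested with limma on log2(CPM + 1). A fold change on that scale understates the change of low genes.

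Between 12 and 72 h, 1012 genes, 23.2% of those tested, had an adjusted p (Benjamini-Hochberg) below 0.05 together with a change of 1 log2 unit or more. Such differentially expressed genes (DEGs) were 422 higher at 72 h (9.67%) and 590 lower (13.5%). The samples of both time points did not overlap for 2516 genes (57.7%), of which 1102 lay above at 72 h (25.3%) and 1414 below (32.4%). The higher genes made up 41.7% of the DEGs on CPM as deposited, 56.4% when each sample was rescaled to the same sum over the genes in the files, and 60.2% with edgeR (797 higher and 528 lower). The median log2 fold change of all tested genes was -0.01, and equal sums moved it by 0.15. With edgeR, which differs in its model and offset as well as its scaling, it moved by 0.21. The balance of rises and falls thus differed between these settings.

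**Figure D1:**
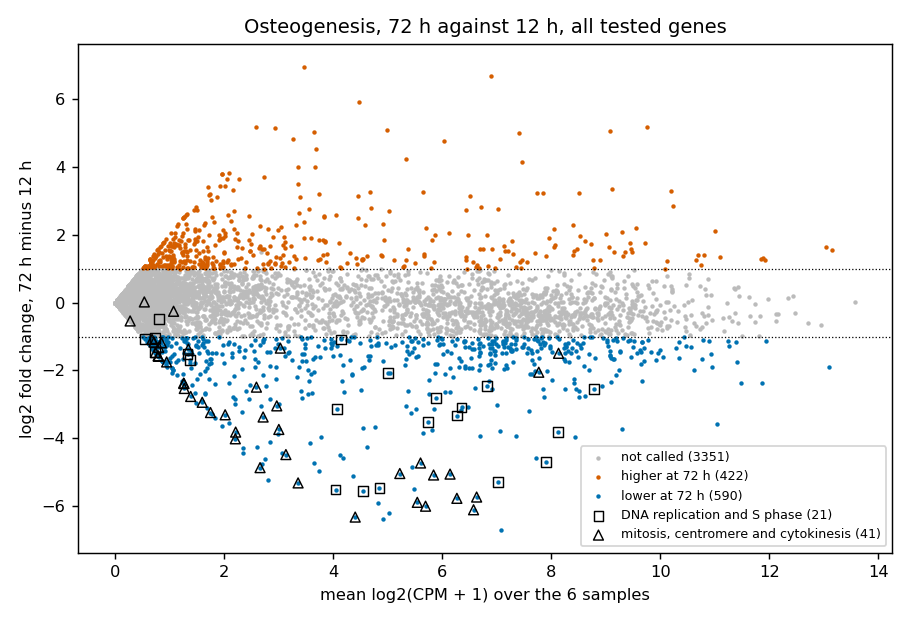
Each point is 1 of the 4363 tested genes, with its mean log2(CPM + 1) over the 6 samples on the x axis and the fitted log2 fold change from 12 to 72 h of osteogenesis on the y axis; orange and blue points are the 422 higher and 590 lower DEGs and dotted lines mark the fold change threshold. Open squares (21 genes of DNA replication) and triangles (41 genes of mitosis) lie below 0 with 1 exception, and reach -6.32.

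The label of the cells was checked against marker genes. Of 15 stromal markers in the files, 8 were tested, with 1 higher (the TF Snai2, 4.23) and 2 lower (Cd44, and the neurotrophin receptor Ngfr, -1.61), against 9.67 and 13.5% of all tested genes. The surface glycoprotein Thy1 stood at 5253, 5570.2 and 5450.4 CPM at 12 h and 3788, 3638 and 3695 CPM at 72 h. The integrin subunit Itgb1 stood at 12279, 12110.1 and 12284 CPM at 12 h and 11544, 12312 and 13089 CPM at 72 h, and neither was a DEG. Cd44, the hyaluronan receptor, fell from 1219, 1186 and 1202 CPM to 300.2, 294 and 311 CPM (log2 fold change -1.99, SE 0.13, adjusted p = 4.11e-14). Other classical stromal markers were nearly undetected at both times, since Eng, Pdgfra, Itga5, Alcam, Twist1, Nes and Vcam1 averaged at most 0.251 CPM, under the floor. Of 22 osteoblast markers and regulators found in the files, 12 passed the filter on low values. The defining markers and regulators Sp7, Dlx5, Alpl, Spp1, Bglap, Dmp1 and Phospho1 did not, with group means of 0 to 0.607 CPM at either time, at or near the floor. Runx2, Col1a1 and Sparc were not analysed here.

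Markers of other cell types were read next. The files held 10 leukocyte markers, with a summed level of 4.52, 7.32 and 5.18 CPM at 12 h and 1.49, 2.5 and 1.36 CPM at 72 h, and Adgre1, Mrc1 and Ms4a1 were at 0 in all 6 samples. Of the 3 tested, Coro1a, an actin-binding protein of leukocytes, was lower at 72 h (-1.73), as were 13.5% of all tested genes. The 6 endothelial markers summed to 0.904, 2.24 and 1.98 CPM at 12 h and 7.01, 5.46 and 7.08 CPM at 72 h, where Tek, the angiopoietin receptor and 1 of 2 tested, was higher (1.63, against 9.67% of all tested genes) and Esam, Erg and Sox17 were at 0. Of 12 smooth muscle, neural and epithelial markers, the 2 tested, the intermediate filament gene Des (-2.40) and the neuronal tubulin Tubb3 (-1.67), were both lower, against 13.5% of all tested genes, and their list summed to 73.7, 81.2 and 81.2 CPM at 12 h and 20.9, 21.8 and 24.3 CPM at 72 h. The 15 chondrocyte markers held no DEG among the 6 tested with limma and 3 higher genes with edgeR, where 18.3% of all tested genes were higher, and the 1 with a level well above the floor, the chondrogenic TF Sox9, stood at 20.2, 21.2 and 13.4 CPM at 12 h and 35.7, 29.6 and 30.1 CPM at 72 h (log2 fold change 0.79, SE 0.14, adjusted p = 3.39e-05), short of the fold change threshold. In such bulk samples a smaller share of cells that express a gene and less of its RNA per cell cannot be told apart.

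Cell cycle transcripts fell as a group. Of 21 tested genes of DNA replication and S phase, 20 were lower at 72 h, against 13.5% of all tested genes, and none higher, with a median log2 fold change of -2.81 against -0.01 for all tested genes. In every one of the 20 the samples at 72 h lay below those at 12 h, as they did in 32.4% of all tested genes. The summed level of the 42 members in the files was 5734, 5964 and 5785 CPM at 12 h and 479.5, 476 and 530.1 CPM at 72 h. At 0 h it had been 721, 731 and 703 CPM and at 3 h of osteogenesis 2489.9, 2441 and 2591 CPM, so that the level at 12 h was the highest of the 4 osteogenic time points and that at 72 h the lowest, with no overlap between neighbours. Relative to 0 h, a contrast that shares the samples at 12 or 72 h with the one above, 640 genes were higher (14.7%) and 312 lower (7.15%) at 12 h and 314 were higher (7.2%) and 231 lower (5.29%) at 72 h. Of the 21 replication genes 18 were higher than at 0 h at 12 h and 6 lower at 72 h.

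The histone chaperone Asf1b, which hands histones to newly replicated DNA, had 151, 167 and 156 CPM at 12 h and 2.98, 2.34 and 1.96 CPM at 72 h (log2 fold change -5.55, SE 0.18, adjusted p = 2.08e-21). Gins1, a subunit of the GINS complex of the replicative helicase, had 114, 110.2 and 106 CPM at 12 h and 2.24, 1.56 and 0.753 CPM at 72 h (log2 fold change -5.51, SE 0.26, adjusted p = 3.65e-17). The licensing factor Cdt1, which loads the helicase onto origins, had 180.3, 202 and 188 CPM at 12 h and 3.13, 3.43 and 3.47 CPM at 72 h (log2 fold change -5.46, SE 0.18, adjusted p = 7.58e-21). All 3 averaged at most 3.34 CPM at 72 h, without overlap with 12 h. The helicase subunits Mcm3 (816 to 19.9 CPM on average, -5.29), Mcm6 (1212 to 46.2 CPM, -4.69) and Mcm4 (1041 to 73.6 CPM, -3.81) fell together, as did the clamp loader subunits Rfc3 (-3.52), Rfc4 (-3.33) and Rfc2 (-2.81). For nucleotide supply, Rrm1, the large subunit of ribonucleotide reductase, fell from 1066 to 180.5 CPM and the thymidylate synthase Tyms from 263 to 47.7 CPM.

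Of 41 tested genes of mitosis, the centromere and cytokinesis, 38 were lower (13.5% of all tested genes were) and none higher, with a median of -2.94, or -3.37 with the 16 genes at or under the floor in all samples of a group set to their bound. The 51 members in the files summed to 5479, 5513 and 5463 CPM at 12 h and 353, 371 and 378 CPM at 72 h, against 765, 763 and 734 CPM at 0 h, and 37 of the 41 were higher than at 0 h at 12 h and 16 lower at 72 h, against 14.7 and 5.29% of all tested genes. Birc5 (survivin), a subunit of the chromosomal passenger complex, had 182, 183 and 198 CPM at 12 h and 1.34, 1.4 and 1.36 CPM at 72 h (log2 fold change -6.32, SE 0.19, adjusted p = 5.20e-22), a 137-fold drop in mean level. The kinesin Kif20a, needed for cytokinesis, had 786, 799 and 779 CPM at 12 h and 11.6, 9.99 and 9.94 CPM at 72 h (log2 fold change -6.10, SE 0.20, adjusted p = 6.56e-21). The kinetochore protein Nuf2, which ties chromosomes to microtubules, had 437, 394 and 407 CPM at 12 h and 4.92, 4.37 and 7.53 CPM at 72 h (log2 fold change -5.996, SE 0.21, adjusted p = 1.53e-20). The groups did not overlap in any of these. Spindle motors were all strongly lower, with Kifc1 at -5.88, Kif11 at -5.73 and Kif22 at -5.05, as were Cdc20, the activator of the anaphase-promoting complex (332 to 9.08 CPM), its inhibitor Fbxo5 (213 to 5.52 CPM) and the cyclin Ccnf (567 to 9.48 CPM). Among members with at least 10 CPM at 12 h the smallest drops were those of the checkpoint protein Bub3 (12.1 to 4.4 CPM, -1.34) and the ubiquitin conjugase Ube2s (471 to 166 CPM, -1.49). Rpa1, Cdc25b, Cenpw and Smc4 were the members that did not pass, all averaging at most 1.31 CPM at 12 h. Of the 2 lists, 17 to 20 of the replication genes and 37 to 39 of the mitosis genes were lower under every other scaling, pseudocount and tool.

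**Figure D2:**
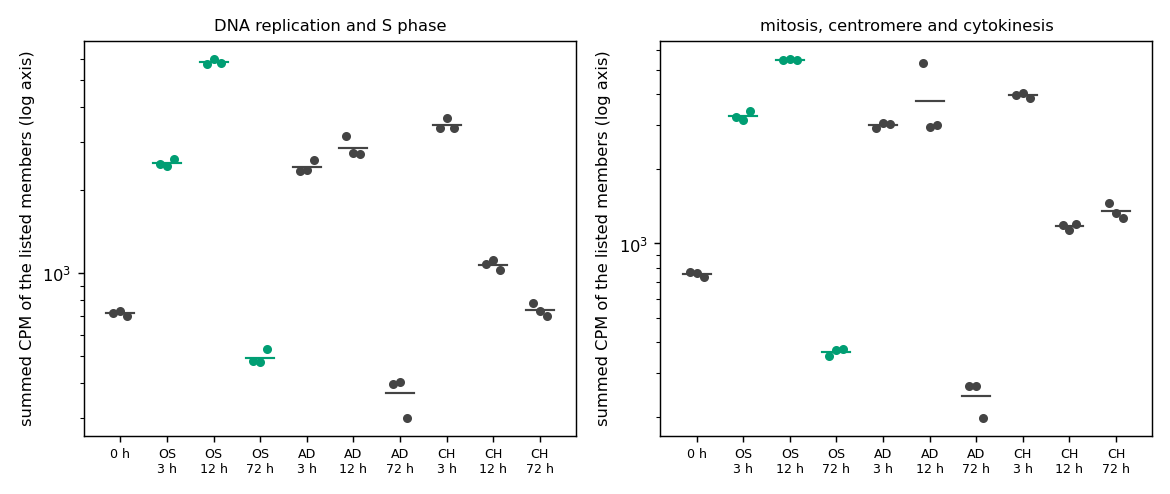
Summed CPM (log axis) of the 42 DNA replication genes (left) and 51 mitosis genes (right) in each of the 30 samples, with a line at each group mean; osteogenic samples are green. From 12 to 72 h the osteogenic sums dropped from 5734 to 5964 CPM down to 476 to 530 CPM (left) and from 5463 to 5513 CPM down to 353 to 378 CPM (right), while the chondrogenic samples were at 1031 to 1115 CPM and 699 to 782 CPM (left) and at 1135 to 1197 CPM and 1269 to 1457 CPM (right).

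Promoter sequences of RefSeq assembly GRCr8, from 250 bases before to 50 after the start of a gene, were available for 17 of the 21 replication genes and 34 of the 41 mitosis genes, and were searched on both strands for the CCAAT box (CCAAT), the CHR (TTTGAA or TTCGAA) and the E2F motif (TTTCCCGC or TTTGGCGC). Among all 33469 promoters 37.5% held a CCAAT box, 19.7% a CHR and 1.45% an E2F motif. Of the replication promoters 12 (70.6%) held a CCAAT box, 5 (29.4%) a CHR and 9 (52.9%) an E2F motif. Of the mitosis promoters 24 (70.6%) held a CCAAT box, 28 (82.4%) a CHR and 0 an E2F motif. A match is a description of the letters and not a binding site, and its part in the change was not tested. The promoters of the 3 genes with the largest drops of each list are given to let the motif content of the 2 groups be compared, 5′ to 3′ in the direction of transcription, with motif matches in capitals. Asf1b lies at chr19:41100303-41100602, minus strand, Gins1 at chr3:160184670-160184969, plus strand, Cdt1 at chr19:67528999-67529298, plus strand, Birc5 at chr10:103571896-103572195, plus strand, Kif20a at chr18:26504172-26504471, plus strand and Nuf2 at chr13:84255549-84255848, minus strand.
Asf1b: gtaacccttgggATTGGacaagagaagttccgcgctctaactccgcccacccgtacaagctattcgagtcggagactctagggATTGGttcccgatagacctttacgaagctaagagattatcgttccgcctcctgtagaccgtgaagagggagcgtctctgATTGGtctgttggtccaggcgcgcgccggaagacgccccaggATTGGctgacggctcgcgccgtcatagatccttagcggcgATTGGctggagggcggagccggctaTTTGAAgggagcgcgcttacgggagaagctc
Gins1: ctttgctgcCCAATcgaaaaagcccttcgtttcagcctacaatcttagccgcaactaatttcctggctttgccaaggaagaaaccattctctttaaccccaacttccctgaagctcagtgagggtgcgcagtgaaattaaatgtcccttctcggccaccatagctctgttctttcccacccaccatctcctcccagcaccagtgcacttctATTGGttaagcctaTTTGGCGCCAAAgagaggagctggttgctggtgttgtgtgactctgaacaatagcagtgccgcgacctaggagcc
Cdt1: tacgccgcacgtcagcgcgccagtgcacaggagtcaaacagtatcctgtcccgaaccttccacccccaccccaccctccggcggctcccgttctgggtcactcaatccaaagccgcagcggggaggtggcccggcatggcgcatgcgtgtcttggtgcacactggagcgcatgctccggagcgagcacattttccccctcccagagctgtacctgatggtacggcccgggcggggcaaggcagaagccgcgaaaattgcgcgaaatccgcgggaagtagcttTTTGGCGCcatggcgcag
Birc5: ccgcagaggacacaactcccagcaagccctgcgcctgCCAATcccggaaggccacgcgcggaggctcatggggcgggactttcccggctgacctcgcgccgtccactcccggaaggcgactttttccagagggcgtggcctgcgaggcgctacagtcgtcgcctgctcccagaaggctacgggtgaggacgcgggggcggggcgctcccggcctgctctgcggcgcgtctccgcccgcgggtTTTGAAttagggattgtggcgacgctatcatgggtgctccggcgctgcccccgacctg
Kif20a: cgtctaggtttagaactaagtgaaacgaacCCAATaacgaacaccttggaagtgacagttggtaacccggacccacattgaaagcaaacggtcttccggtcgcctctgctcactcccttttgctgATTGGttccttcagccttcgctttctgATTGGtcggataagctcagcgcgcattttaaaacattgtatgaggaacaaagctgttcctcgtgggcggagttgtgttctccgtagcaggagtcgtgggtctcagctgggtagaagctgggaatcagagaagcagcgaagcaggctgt
Nuf2: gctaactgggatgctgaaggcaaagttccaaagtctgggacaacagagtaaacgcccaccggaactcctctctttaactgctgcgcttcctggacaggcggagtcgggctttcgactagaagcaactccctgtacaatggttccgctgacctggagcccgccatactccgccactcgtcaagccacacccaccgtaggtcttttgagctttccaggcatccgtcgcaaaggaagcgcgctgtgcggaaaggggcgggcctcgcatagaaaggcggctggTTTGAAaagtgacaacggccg
Gins1 carries 2 overlapping E2F matches, at -25 and -21 relative to the start, and Cdt1 carries 1 at 33. Birc5 carries a CHR at -8, Nuf2 at 30 and Asf1b at 20, and Kif20a holds 3 CCAAT boxes and no CHR in this window. In Asf1b, 5 CCAAT boxes are spread from -238 to -6.

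Among the 12 largest falls with a mean of at least 10 CPM, 4 lay outside these 2 lists. The uncharacterised LOC102549061 had 1377, 1459 and 1268 CPM at 12 h and 10.6, 16.2 and 10.7 CPM at 72 h (log2 fold change -6.69, SE 0.26, adjusted p = 4.52e-19). Pclaf, which binds the replication clamp PCNA, had 256, 284 and 276 CPM at 12 h and 2.98, 1.56 and 2.56 CPM at 72 h (log2 fold change -6.36, SE 0.17, adjusted p = 3.65e-23). The linker histone gene Hist1h1a had 252, 312 and 269.9 CPM at 12 h and 2.69, 2.81 and 2.86 CPM at 72 h (log2 fold change -6.20, SE 0.19, adjusted p = 7.83e-22). Histone genes have near-identical copies, so the share of each copy is uncertain. Ccr1, a receptor of inflammatory chemokines, had 222, 222 and 208 CPM at 12 h and 1.19, 2.96 and 4.52 CPM at 72 h (log2 fold change -5.91, SE 0.28, adjusted p = 3.57e-17). The samples at 72 h lay far below those at 12 h in all 4.

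Of 8 tested cyclin-dependent kinase inhibitors and p53 targets, 2 were higher (9.67% of all tested genes were) and none lower, with a median of 0.51. Sesn3, a sestrin that restrains mTORC1, rose from 52.6, 50.1 and 44.5 CPM to 321, 340.3 and 347 CPM (log2 fold change 2.75, SE 0.13, adjusted p = 1.36e-17), and the stress gene Gadd45a from 1.46 to 5.73 CPM (1.47).

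The largest rises included secreted and membrane proteins of several kinds. Spon1 (F-spondin), a matrix protein, had 11.4, 10.2 and 10.8 CPM at 12 h and 1203, 1172 and 1254 CPM at 72 h (log2 fold change 6.68, SE 0.13, adjusted p = 1.17e-26), a 112-fold increase. Mgp, the matrix Gla protein that inhibits mineral deposition, had 143, 152 and 134 CPM at 12 h and 4867, 5545 and 5171 CPM at 72 h (log2 fold change 5.18, SE 0.23, adjusted p = 7.30e-18). Plpp3, a membrane phosphatase that degrades lysophosphatidic acid and related lipids, had 96.7, 93.6 and 90.03 CPM at 12 h and 3071, 2998 and 3281 CPM at 72 h (log2 fold change 5.04, SE 0.12, adjusted p = 1.35e-24). For each of these genes the levels at 72 h were also above those at 0 h, which were 40.4, 40.8 and 36.7 CPM for Spon1, 2749.6, 2604 and 2603 CPM for Mgp and 547, 550.5 and 552 CPM for Plpp3.

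Akr1cl, an aldo-keto reductase, had no read at 12 h and 36.3, 31.8 and 36.8 CPM at 72 h, at least 77.2-fold higher when 3 reads per library are taken for 12 h (log2 fold change 5.17, SE 0.23, adjusted p = 7.30e-18). It was detected at 0 h, with 6.88, 6.69 and 5.004 CPM. The secreted protein Fibin had 2.26, 2.24 and 1.22 CPM at 12 h and 163, 176 and 174 CPM at 72 h (log2 fold change 5.91, SE 0.23, adjusted p = 5.54e-19). Further enzymes rose, among them the angiotensin-converting enzyme Ace from 1.21 to 70.8 CPM (5.02) and the aldehyde oxidase Aox1 from 29.2 to 960.2 CPM (4.99). Rarres1, a retinoic acid-responsive gene, rose from 4.47 to 184 CPM (5.07), Cavin2, a coat protein of caveolae, from 0.856 to 50.2 CPM (4.83), the heparin-binding growth factor Ptn from 11.7 to 341 CPM (4.75) and the uncharacterised LOC100911545 from 0.301 to 44 CPM (5.13).

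**Figure D3:**
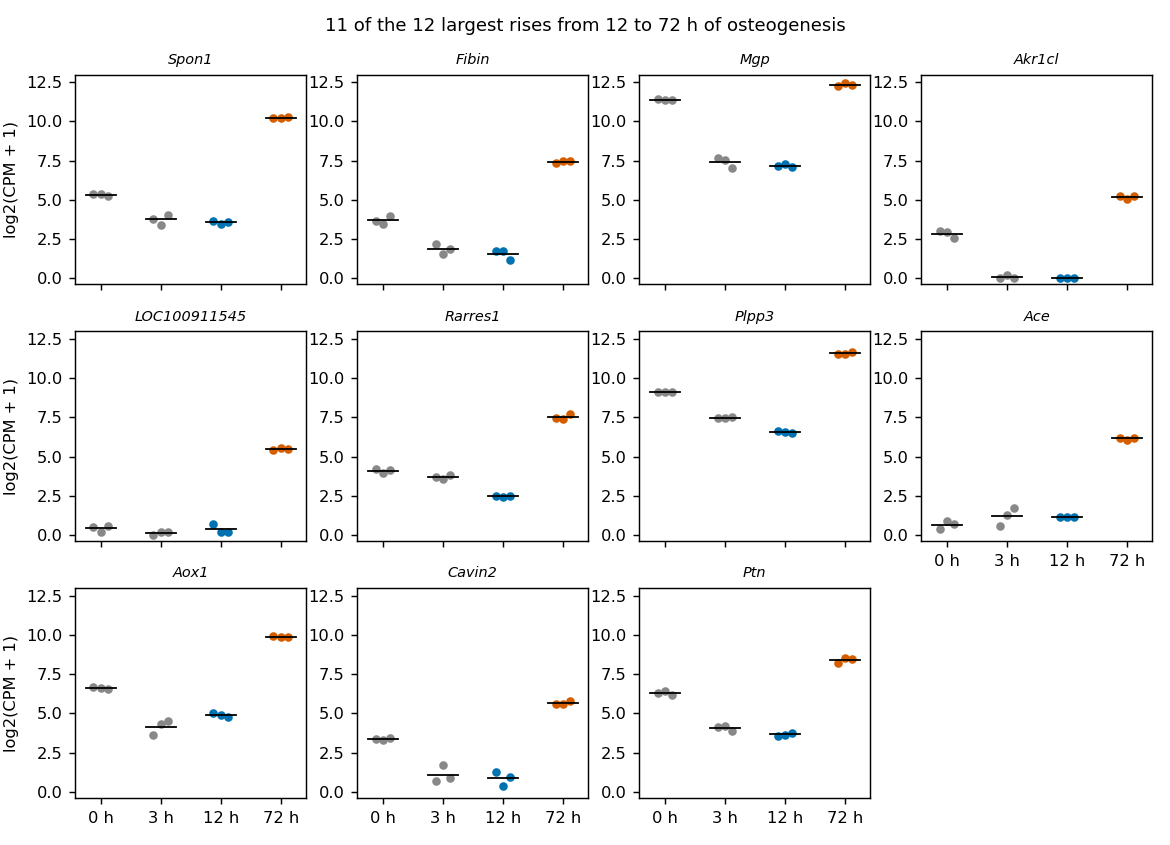
Level of 11 of the 12 largest rises, as log2(CPM + 1), in each sample at 0, 3, 12 and 72 h of osteogenesis, with a line at each group mean; 12 h is blue and 72 h orange. In all 11 panels the 3 samples at 72 h lie above every sample at the other times, and Akr1cl is at 0 at 12 h.

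Beyond Mgp, 3 of the 12 tested osteoblast markers and regulators were higher and 1 was lower, against 9.67 and 13.5% of all tested genes, with a list median of 0.72. Under edgeR 7 of the 12 were higher, against 18.3% of all tested genes. Smpd3, the neutral sphingomyelinase required for normal bone mineralization, had 0, 0 and 0.152 CPM at 12 h and 13, 15.9 and 11.6 CPM at 72 h, a ratio of 268 (95% interval 47.7 to 10622) from 1 read over the 3 samples at 12 h (log2 fold change 3.78, SE 0.27, adjusted p = 8.07e-13). Tnfrsf11b (osteoprotegerin), the decoy receptor that limits osteoclast formation, had 20.3, 25.7 and 19 CPM at 12 h and 46.8, 53 and 57.3 CPM at 72 h (log2 fold change 1.24, SE 0.19, adjusted p = 3.71e-06). The matricellular protein Postn was absent from the reads at 12 h and had 1.19, 2.65 and 2.26 CPM at 72 h, at least 4.5-fold higher (1.57). The homeodomain protein Hopx fell instead, from 14.3, 13.6 and 13.7 CPM to 3.43, 4.37 and 4.22 CPM (log2 fold change -1.58, SE 0.31, adjusted p = 8.42e-05). This call was lost with a pseudocount of 0.1 (-1.77, adjusted p = 0.0664). Hopx had averaged 0.325 CPM at 0 h, under the floor, and 5.54 CPM at 3 h of osteogenesis. Its samples at 72 h thus all stayed above the mean at 0 h. The study reports Hopx as raised over uninduced cells at each osteogenic time point. The bone TFs Dlx3 (267 to 170.2 CPM, -0.65) and Msx2 (16.8 to 19.1 CPM, 0.17) and the cadherin Cdh11 (519 to 500.4 CPM, -0.05) did not pass.

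Collagens and the enzymes that process them were mostly below the threshold. Of 20 tested, 2 were higher and 1 lower, with a median of 0.38, against 9.67 and 13.5% of all tested genes, and 8 genes lay above and 4 below without overlap (25.3 and 32.4% of all tested genes did). Median-ratio scaling gave 4 higher and 0 lower, where 501 of all 4363 tested genes were higher and 473 lower. Equal sums gave the same 4 and 0, where 558 of all tested genes were higher and 431 lower. With edgeR 6 were higher and 0 lower (median 0.95), where 18.3% of all tested genes were higher and 12.1% lower and their median had moved as given above. Fkbp9, a prolyl isomerase of the endoplasmic reticulum, had 1158, 1224 and 1139 CPM at 12 h and 2483, 2456 and 2659 CPM at 72 h (log2 fold change 1.11, SE 0.19, adjusted p = 1.77e-05). Serpinh1, the collagen chaperone, had 1777, 2153 and 2002 CPM at 12 h and 1154, 839 and 952 CPM at 72 h (log2 fold change -1.02, SE 0.29, adjusted p = 0.00484) and lost its call under every other scaling and when rows sharing the name were tested apart (-0.44, adjusted p = 0.295). Col4a2, a basement membrane collagen, was low (1.21 to 3.49 CPM, 1.02) and lost its call with any 1 of the 6 samples left out.

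Other secreted matrix proteins moved in both directions, with 5 higher and 5 lower of 24 tested, against 9.67 and 13.5% of all tested genes, and with 8 higher and 5 lower under edgeR, against 18.3 and 12.1%. Besides Spon1, the integrin beta-like protein Itgbl1 had 36, 41.6 and 45.2 CPM at 12 h and 685, 753 and 791 CPM at 72 h (log2 fold change 4.15, SE 0.54, adjusted p = 1.48e-07) and the small proteoglycan Lum rose from 2.87 to 15.9 CPM (2.15, adjusted p = 0.0195), where leaving out OS 12 h replicate 2 or OS 72 h replicate 3 gave 1.97 (adjusted p = 0.0657) and 2.03 (adjusted p = 0.0574). Lum had averaged 50.3 CPM at 0 h, above its level at 72 h, and Itgbl1 166 CPM, below it. The laminin chains split, since Lama5 fell from 3116 to 978 CPM (-1.67) and Lama1 from 3.07 to 0.0502 CPM (-1.93), whereas Lamc1 rose from 0.902 to 2.98 CPM (1.05). Elastin (Eln) had no read at 12 h and averaged 2.12 CPM at 72 h (1.63).

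Matrix proteases and their inhibitors were higher in 7 of 19 tested genes and lower in 3, against 9.67 and 13.5% of all tested genes, with a median of 0.40. Their summed level was 15804, 16690.1 and 16208 CPM at 12 h and 38200.4, 36048 and 38428 CPM at 72 h. It had been 39028 to 40178 CPM at 0 h, so that the sum at 72 h was slightly below the level before induction. Relative to 0 h, 3 of the 19 were higher at 72 h and 2 lower, against 7.2 and 5.29% of all tested genes. The largest part of the increase from 12 to 72 h was Mmp2 (gelatinase A), at 4547, 5026 and 4753 CPM at 12 h and 14843, 14248 and 15400.0 CPM at 72 h (log2 fold change 1.64, SE 0.18, adjusted p = 6.11e-09). Its inhibitor Timp2 rose alongside from 2357 to 5786 CPM (1.29), as did the lysosomal cathepsins Ctsb (2528 to 5969 CPM, 1.24) and Ctsd (1017 to 2691 CPM, 1.40) and the serpin Serpinf1, an antiangiogenic factor also known from bone (1363 to 3487 CPM, 1.35). The aggrecanase Adamts4 had 5.12, 6.88 and 7.16 CPM at 12 h and 63, 55.9 and 73.8 CPM at 72 h (log2 fold change 3.14, SE 0.15, adjusted p = 5.39e-17) and the related Adamts8 went the other way, with 183, 197 and 184 CPM at 12 h and 11, 14.5 and 11.3 CPM at 72 h (log2 fold change -3.84, SE 0.35, adjusted p = 1.27e-10). Adamts4 had averaged 52.4 CPM and Adamts8 11 CPM at 0 h, each near its level at 72 h. The urokinase Plau rose from 8.44 to 30.7 CPM and the cathepsin Ctsz fell from 162 to 43.9 CPM.

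In 3 growth factor pathways some tested members rose and no fall passed the test, although each list also held members with values below 0. In the insulin-like growth factor system, 4 of 7 tested genes were higher (median 1.01), against 9.67% of all tested genes. The binding protein Igfbp6 had 173, 174 and 176 CPM at 12 h and 1628, 1798 and 1874 CPM at 72 h (log2 fold change 3.33, SE 0.31, adjusted p = 1.94e-10), and Igfbp5 had 1.96, 2.24 and 2.44 CPM at 12 h and 44.2, 51.8 and 53.2 CPM at 72 h (log2 fold change 3.98, SE 0.74, adjusted p = 4.24e-05). Both carry insulin-like growth factors outside cells, and neither overlapped between the time points. Pappa2, a protease of such binding proteins (1.65 to 4.66 CPM, 1.15), and the receptor adaptor Grb10 (5.99 to 12.8 CPM, 1.01) passed narrowly. Pappa2 lost its call without OS 12 h replicate 3 (0.82, adjusted p = 0.0547), and Grb10 fell under the fold threshold without OS 12 h replicate 2 (0.77) or OS 72 h replicate 1 (0.91) or 3 (0.98).

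In the TGF-beta, BMP and activin pathway, 5 of 13 were higher (median 0.80), against the same 9.67%. The co-receptor Tgfbr3 (betaglycan) had 999.9, 980.4 and 1001 CPM at 12 h and 4240.2, 4081 and 4419.9 CPM at 72 h (log2 fold change 2.09, SE 0.10, adjusted p = 5.39e-17). The activin and inhibin subunit Inhbb had 248, 265 and 257 CPM at 12 h and 998, 1027 and 1078 CPM at 72 h (log2 fold change 2.01, SE 0.16, adjusted p = 4.53e-12). Bmp3, a BMP that antagonises osteogenic BMPs, had 0, 0.299 and 0 CPM at 12 h and 3.88, 5.62 and 4.07 CPM at 72 h, a ratio of 44.8 (95% interval 12 to 376). The BMP target Id2 rose from 5.78 to 39.7 CPM (2.59), a value that rests on summing the rows of its name, since it was 0.70 with an adjusted p of 0.0498 when they were tested apart. Id2 had averaged 40.4 CPM at 0 h, near its level at 72 h. Gdf15 rose from 1.61 to 4.61 CPM (1.11).

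Among Wnt pathway genes 4 of 21 were higher, against 9.67% of all tested genes, and the list median of 0.13 (0.00 with 6 genes at their bound) was near that of all tested genes, -0.01. The secreted Wnt antagonist Frzb had 0, 0 and 0.152 CPM at 12 h and 12.5, 13.7 and 14.3 CPM at 72 h, a ratio of 269 (95% interval 47.9 to 10662) (log2 fold change 3.79, SE 0.40, adjusted p = 3.05e-09), against 13.9, 13.9 and 12.9 CPM at 0 h. The receptor Fzd4 had 205, 203 and 198 CPM at 12 h and 590.2, 533 and 601 CPM at 72 h (log2 fold change 1.503, SE 0.16, adjusted p = 3.33e-09). Wisp2, a secreted CCN family protein, had no read at 12 h and was at least 11.8-fold higher at 72 h (6.27, 3.28 and 6.48 CPM), and the Wnt inhibitor Apcdd1 rose from 0.599 to 2.53 CPM (1.21), without its call when OS 12 h replicate 3 was left out (0.92).

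Osteogenic media commonly contain dexamethasone, and a list of glucocorticoid-responsive genes was therefore read, with 2 of 8 higher and 1 lower (median 0.48), against 9.67 and 13.5% of all tested genes. Tsc22d3 (GILZ), a classical glucocorticoid target, had 66.9, 81.2 and 76 CPM at 12 h and 599, 784 and 766 CPM at 72 h (log2 fold change 3.24, SE 0.15, adjusted p = 4.58e-17), against 31.1, 26.9 and 25.3 CPM at 0 h. The metallothionein Mt2A had 1000.2, 1083 and 1019.7 CPM at 12 h and 2512, 2459.6 and 2488 CPM at 72 h (log2 fold change 1.27, SE 0.13, adjusted p = 1.89e-09). The transglutaminase Tgm2 fell from 8.6 to 1.26 CPM (-2.15). Of 6 tested clock genes 3 were higher (median 0.63, against 9.67% of all tested genes), namely Bhlhe41 (2.81 to 10.1 CPM, 1.56), Nr1d1 (0.652 to 3.79 CPM, 1.55) and Cry2 (11.3 to 23.9 CPM, 1.04), repressors of the clock loop, with Cry2 short of the fold threshold without OS 12 h replicate 3 (0.90) or OS 72 h replicate 3 (0.99). The clock time at which cells were collected is not given in the sources used here.

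Inflammatory cytokines and chemokines were lower in 9 of 16 tested genes, against 13.5% of all tested genes, and higher in none, with a median of -1.16, or -1.21 with 6 genes at their bound. The neutrophil chemokine Cxcl1 had 7076, 7677 and 7123 CPM at 12 h and 603, 592 and 639.9 CPM at 72 h (log2 fold change -3.57, SE 0.13, adjusted p = 4.93e-20). Il1rl1, the receptor of interleukin 33, had 474, 492 and 509 CPM at 12 h and 44.8, 27.8 and 33.4 CPM at 72 h (log2 fold change -3.79, SE 0.36, adjusted p = 3.80e-10). Cxcl1 accounted for most of the summed level of the list, 8192, 8788 and 8277 CPM at 12 h and 910.1, 891 and 938 CPM at 72 h. Cxcl2 had 10.4, 12 and 9.6 CPM at 12 h and 0, 0.156 and 0.151 CPM at 72 h, a ratio of 105 (95% interval 28.8 to 875) in favour of 12 h, and Cxcl3 had 6.48, 5.68 and 8.23 CPM at 12 h and no read at 72 h, at least 14.9-fold lower; these chemokines are close paralogs and reads could be split between them. The monocyte attractants Ccl2 (390.3 to 160.2 CPM, -1.28) and Ccl7 (203 to 92.3 CPM, -1.13) also fell.

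Interferon response and antigen presentation genes were higher in 4 of 17, all at low levels (median 0.43, or 0.54 with 5 genes at their bound), against 9.67% of all tested genes. With edgeR 7 were higher and 1 lower, against 18.3 and 12.1% of all tested genes. The antiviral gene Oasl2 had 3.62, 3.14 and 3.35 CPM at 12 h and 14.6, 16.1 and 16 CPM at 72 h (log2 fold change 1.92, SE 0.25, adjusted p = 1.16e-07), the guanylate-binding protein Gbp2 rose from 1.1 to 6.11 CPM (1.83) and the RNA sensor Dhx58 from 0.101 to 1.37 CPM (1.11). Ifit1 (0.656 to 2.27 CPM, 1.002) sat at the threshold and lost its call with a pseudocount of 0.1 (1.80, adjusted p = 0.0801) and without any of 4 single replicates.

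Of 14 immediate-early and MAPK feedback genes, 3 were lower, against 13.5% of all tested genes, and none higher (median -0.37). Dusp4, a phosphatase that inactivates ERK, had 84.7, 85.3 and 79.98 CPM at 12 h and 4.33, 6.55 and 5.73 CPM at 72 h (log2 fold change -3.70, SE 0.21, adjusted p = 4.72e-15). Its relative Dusp10 had 32.4, 36.6 and 31.2 CPM at 12 h and 9.1, 10.1 and 6.93 CPM at 72 h (log2 fold change -1.83, SE 0.15, adjusted p = 3.01e-11), and the EGF receptor ligand Areg fell from 1.4 to 0.1004 CPM (-1.12).

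Genes of cholesterol and fatty acid synthesis were lower in 11 of 20 tested and higher in 1, with a median of -1.09, against 13.5 and 9.67% of all tested genes. The number lower was 7 without OS 72 h replicate 1 (577 of all 4363 tested genes were lower there) and 8 with equal sums (431). The summed level was 29204, 30752 and 29441 CPM at 12 h and 8315, 7949 and 8542 CPM at 72 h, against 7109 to 7465 CPM at 0 h. Relative to 0 h, 9 of the 20 were higher and 1 lower at 12 h, against 14.7 and 7.15% of all tested genes. At 72 h 0 were higher and 0 lower, against 7.2 and 5.29%. Fdft1 (squalene synthase), the first committed enzyme of sterol synthesis, had 780.2, 835 and 845 CPM at 12 h and 202, 193 and 224 CPM at 72 h (log2 fold change -1.99, SE 0.10, adjusted p = 1.07e-16). The lanosterol demethylase Cyp51 had 3085, 3234 and 3107 CPM at 12 h and 797, 753 and 827 CPM at 72 h (log2 fold change -1.99, SE 0.14, adjusted p = 5.46e-13). The stearoyl-CoA desaturase Scd2 had 16504, 17523 and 16616 CPM at 12 h and 4550.2, 4357 and 4662 CPM at 72 h (log2 fold change -1.90, SE 0.12, adjusted p = 7.18e-14), and the fatty acid synthase Fasn had 3676, 3938 and 3759.9 CPM at 12 h and 1036, 971 and 1059.8 CPM at 72 h (log2 fold change -1.89, SE 0.15, adjusted p = 1.50e-11). The time points did not overlap in any of these 4 genes. The sterol genes Sqle (-1.80), Msmo1 (-1.71) and Insig1 (-1.60) fell too, whereas Abca1, which exports cholesterol, rose from 0.0508 to 1.56 CPM (1.25).

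Adipocyte markers moved both ways, 4 higher and 2 lower of 11 tested, against 9.67 and 13.5% of all tested genes (median 0.62, or 0.53 with 3 genes at their bound). The lipoprotein lipase Lpl had 104, 122 and 129 CPM at 12 h and 1143, 1037 and 1140.1 CPM at 72 h (log2 fold change 3.22, SE 0.32, adjusted p = 8.93e-10). Dgat2, which makes triglycerides, had 22.4, 25.6 and 22.7 CPM at 12 h and 121, 109 and 102 CPM at 72 h (log2 fold change 2.19, SE 0.19, adjusted p = 4.33e-11), and the adipsin gene Cfd, without a read at 12 h, had 4.18, 4.52 and 5.12 CPM at 72 h, at least 10.2-fold higher. The adipogenic TF Pparg rose from 0.252 to 2.18 CPM (1.37). The fatty acid carrier Fabp5 fell from 243, 264 and 259.9 CPM to 30.4, 30.4 and 27.6 CPM (log2 fold change -3.07, SE 0.16, adjusted p = 5.99e-16), and the defining fat cell genes Cd36, Cidec and Retn were at 0 in all 6 samples.

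Glycolysis and hypoxia genes were lower in 9 of 19 and higher in 1, against 13.5 and 9.67% of all tested genes (median -0.96, or -1.05 with 2 genes at their bound). Egln3, a prolyl hydroxylase induced by hypoxia, had 237, 248 and 248 CPM at 12 h and 26.4, 26.1 and 25.9 CPM at 72 h (log2 fold change -3.18, SE 0.23, adjusted p = 7.76e-13). The lactate dehydrogenase Ldha had 6319, 6568 and 6628 CPM at 12 h and 1255, 1234 and 1312 CPM at 72 h (log2 fold change -2.36, SE 0.14, adjusted p = 1.69e-14). Pdk1, which blocks pyruvate entry into the citric acid cycle, had 401, 423 and 431 CPM at 12 h and 105, 101 and 103 CPM at 72 h (log2 fold change -2.01, SE 0.10, adjusted p = 2.93e-16), and the phosphoglycerate kinase Pgk1 fell from 3326 to 1153 CPM (-1.53). The exception was Ndrg1, a gene induced by hypoxia and differentiation, which rose from 208 to 549.8 CPM (1.39). Eno1 was also lower (8.7 to 0.92 CPM, -2.37), and like Pgk1, Ldha and Pkm it has processed copies in the genome that may have taken part of its reads. Of 47 respiratory chain and mitochondrial ribosome genes 4 were lower, under the 13.5% of all tested genes, and none higher, although 32 lay below without overlap, against 32.4% of all tested genes (median -0.55), with the mitoribosome subunits Mrps22 (-1.51) and Mrpl28 (-1.30) and the respiratory subunits Uqcrc1 (-1.18) and Sdhd (-1.08) named by the test. Under each other scaling and with edgeR, Uqcrc1 (-0.771 to -0.999) and Sdhd (-0.73 to -0.89) came short of the fold threshold, with adjusted p of at most 4.44e-06, as did Mrpl28 under quantile normalization (-0.86).

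Ribosome biogenesis was lower in 13 of 23 tested genes, against 13.5% of all tested genes, and higher in none (median -1.04). The list summed to 1856 to 1921 CPM at 0 h, 4698 to 4775 CPM at 12 h and 2001 to 2136 CPM at 72 h. Relative to 0 h, 14 of the 23 were higher and 1 lower at 12 h, against 14.7 and 7.15% of all tested genes. At 72 h 0 were higher and 0 lower, against 7.2 and 5.29%. Rrp12, a factor of ribosomal subunit export, had 273, 271 and 267 CPM at 12 h and 69.2, 72.1 and 82.6 CPM at 72 h (log2 fold change -1.85, SE 0.14, adjusted p = 1.95e-12). Bysl, which matures the small subunit, had 278, 298 and 283 CPM at 12 h and 90.1, 82.1 and 80.8 CPM at 72 h (log2 fold change -1.75, SE 0.14, adjusted p = 1.63e-11), and Ftsj3 and Bop1, which process the precursor of ribosomal RNA, changed by -1.47 and -1.37. The number lower depended on the scaling, with 10 under median-ratio scaling (473 of all 4363 tested genes were lower there), 7 with equal sums (431) or edgeR (528, and 1 member higher) and 3 under quantile normalization (479), the last a share near that of all tested genes. The median stayed at -0.67 or below. The 26 cytoplasmic ribosomal protein genes, many with near-identical copies, held 2 falls, a share under the 13.5% of all tested genes. Both were at low levels (Rpl37, 2.51 to 0.151 CPM, and Rpl38, 7.98 to 3.2 CPM). Rpl38 lost its call without OS 12 h replicate 2 or OS 72 h replicate 1, with equal sums (-0.88) and under median-ratio scaling (-0.95). The sums of the list, 22993, 25055 and 23199 CPM at 12 h and 22440.1, 21721 and 22712 CPM at 72 h, lay close together without overlapping.

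Of 30 chaperones and genes of the secretory pathway, 4 were lower, a share near the 13.5% of all tested genes, and none higher (median -0.48), namely the heat shock proteins Hspa4 (1935 to 868 CPM, -1.16) and Hspa9 (1282 to 593 CPM, -1.11), the translocon subunit Ssr2 (211 to 97.1 CPM, -1.11) and Sdf2l1 (112 to 52.2 CPM, -1.09). None of these 4 kept its call under any other scaling or with edgeR, where their changes were -0.66 to -0.97 and the list held 1 higher gene and 0 lower.

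Actin, myosin and contractile genes moved in both directions, with 3 of 30 higher and 5 lower, shares near the 9.67 and 13.5% of all tested genes, and the sign of their median depended on the scaling (-0.20 on CPM as deposited, 0.02 with equal sums and 0.05 with edgeR). Without OS 12 h replicate 2, 1 was higher and 5 lower, where 423 and 584 of all 4363 tested genes were. Quantile normalization gave 2 higher and 3 lower, where 454 and 479 of all tested genes were. With equal sums 5 were higher and 3 lower (558 and 431 of all tested genes), and with edgeR 6 and 4 (18.3 and 12.1%). Calponin (Cnn1), which stabilises actin in smooth muscle-like cells, had 71.1, 74.4 and 74.3 CPM at 12 h and 1.79, 1.25 and 1.21 CPM at 72 h (log2 fold change -4.95, SE 0.17, adjusted p = 1.10e-20). Transgelin (Tagln) fell from 16.2 to 6.69 CPM (-1.22) and the tropomyosin Tpm4 from 1215 to 539 CPM (-1.17), while another tropomyosin, Tpm1, rose from 6.09 to 16.7 CPM (1.32), as did Vcl (1.03) and Cald1 (1.05). The fall of Actn4 (526 to 208 CPM, -1.34) was -0.61 with an adjusted p of 0.0934 when rows sharing its name were tested apart.

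**Figure D4:**
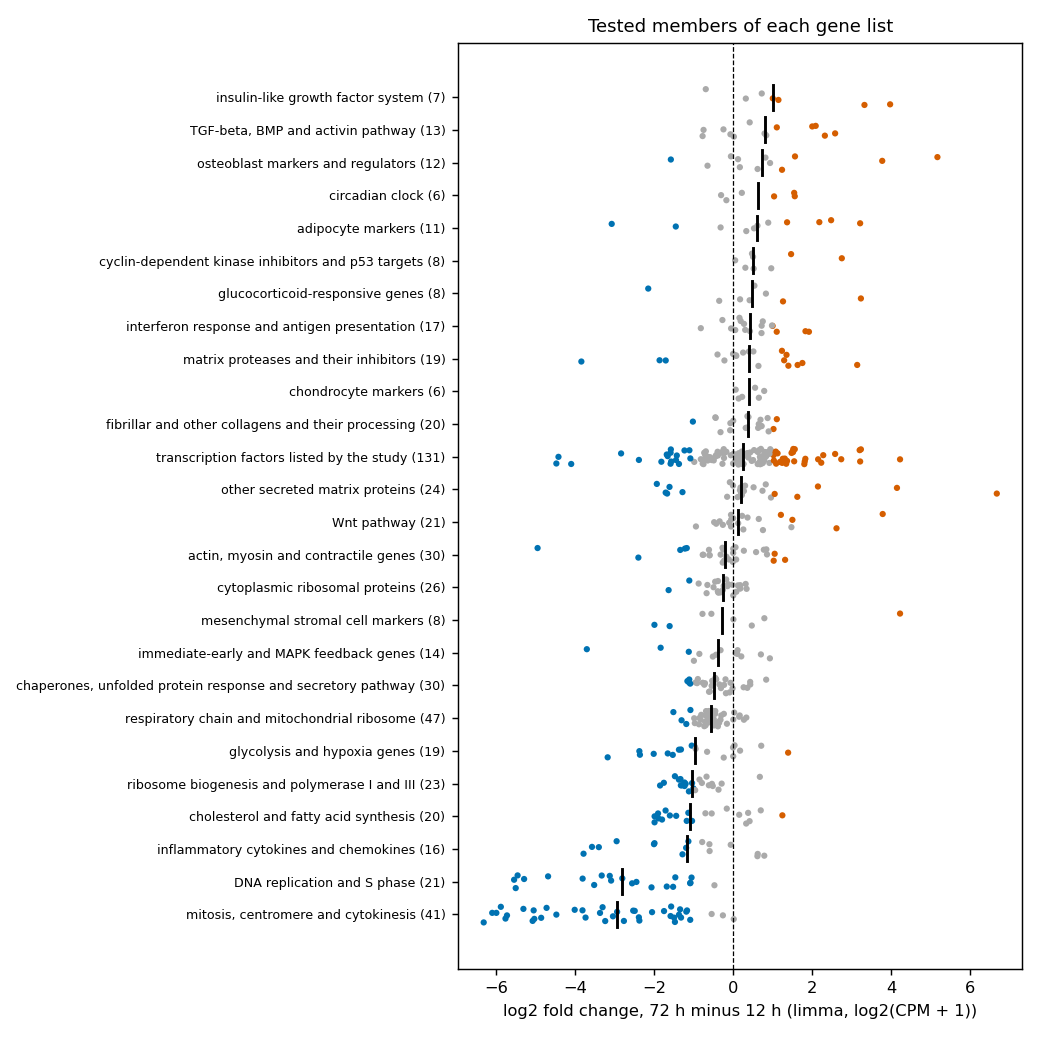
Fitted log2 fold change from 12 to 72 h of every tested member of each list with at least 6 tested members, with the number tested in brackets, black bars at the list medians and a dashed line at the median of all tested genes (-0.01); orange points are higher, blue lower and grey not called. The medians run from -2.94 for mitosis to 1.01 for the insulin-like growth factor system.

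Of 142 TFs that the study listed from these same samples, so that their movement is not independent evidence, 131 were tested, with 29 higher and 18 lower (median 0.25), against 9.67 and 13.5% of all tested genes, so that the share of falls was near that of all genes. Under edgeR 48 were higher, against 18.3% of all tested genes. Snai2, a zinc finger repressor of mesenchymal cells, had 9.19, 6.73 and 9.14 CPM at 12 h and 170.2, 171 and 178 CPM at 72 h (log2 fold change 4.23, SE 0.28, adjusted p = 1.19e-13). Meox2, a homeodomain TF that restrains proliferation, had 64.8, 70.1 and 73.3 CPM at 12 h and 616, 679.6 and 668 CPM at 72 h (log2 fold change 3.22, SE 0.19, adjusted p = 6.25e-15). Both were also above their levels at 0 h, 7.59, 5.85 and 7.89 CPM and 283, 321 and 263 CPM. Tsc22d1, a TGF-beta-responsive relative of Tsc22d3, rose from 3.57 to 39.7 CPM (3.21) and the basic helix-loop-helix factor Atoh8 from 3.71 to 29.4 CPM (2.74). Tsc22d1 had averaged 14.8 CPM at 0 h and Atoh8 34.3 CPM, the latter above its level at 72 h.

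Falls among the listed TFs included the centromeric histone Cenpa (35.1, 43.3 and 43 CPM at 12 h and 0.746, 0.78 and 1.05 CPM at 72 h, -4.48), which belongs to the mitosis list, and Pax8, a paired-box TF, with 24.7, 20.9 and 22.2 CPM at 12 h and 0.149, 0.156 and 0 CPM at 72 h and a ratio of 223 (95% interval 61.5 to 1850.2) in favour of 12 h. Rab24, listed as a TF although it encodes a small GTPase, fell from 29 to 0.814 CPM (-4.10). Zfp367, a zinc finger protein, and Hoxd13, a homeodomain TF of the distal limb, fell from 4.52 to 0.052 CPM and 5.18 to 0.757 CPM, and the uncharacterised AABR07015743.1 from 11.4 to 0.767 CPM. The cell cycle TFs E2f2 (3.62 to 0.459 CPM, -1.68) and Foxm1 (2.06 to 0 CPM, -1.57) were low and fell too.

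Whether the change from 12 to 72 h differed between lineages was tested as a difference of the 2 changes, which share no samples. Against adipogenesis, 380 genes (8.71% of those tested) changed more upward in osteogenesis and 241 (5.52%) more downward. The higher share was 61.2% on CPM as deposited, 49.7% under quantile normalization and 43.2% under median-ratio scaling (245 and 322). Against chondrogenesis, 418 genes (9.58%) changed more upward and 563 (12.9%) more downward, a higher share of 42.6% that became 57.5% with equal sums. Adipogenic samples were less uniform. The mitosis sum was 5307, 2947 and 3002 CPM at AD 12 h, with replicate 1 apart, and AD 72 h replicate 3 held 38.9% of its reads in the genes of the files against 47.9 and 49.0% in the other two.

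Cell cycle genes fell in adipogenesis too. In that lineage 33 of the 41 mitosis genes and 13 of the 21 replication genes were lower at 72 h (10.8% of all tested genes were), with medians of -2.36 and -2.46, and the osteogenic change differed from the adipogenic one for 7 mitosis genes (2 upward and 5 downward) and for 5 replication genes (downward), where 8.71% of all tested genes differed upward and 5.52% downward. In chondrogenesis 0 of 41 mitosis genes and 1 of 21 replication genes were lower, against 5.23% of all tested genes (medians 0.23 and -0.12), and the osteogenic change was more negative for 36 of 41 and 20 of 21, against 12.9% of all tested genes. Birc5 had 30.04, 30.9 and 26 CPM at CH 12 h and 64.6, 48.9 and 44.5 CPM at CH 72 h, a difference from the osteogenic change of -7.14, SE 0.27, adjusted p = 4.59e-19. Chondrogenic sums at 12 h were already below those of osteogenesis at that time, as the plot of summed levels shows.

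Plpp3 and Lpl changed in opposite directions in osteogenesis and chondrogenesis. Plpp3 had 139, 145 and 133 CPM at CH 12 h and 55.4, 62.3 and 57.8 CPM at CH 72 h, and the 2 changes differed by 6.28, SE 0.16, adjusted p = 1.03e-22. Lpl fell in chondrogenesis from 83.3, 78.2 and 96.8 CPM to 13.6, 13.5 and 14.7 CPM, a difference of 5.76, SE 0.45, adjusted p = 1.33e-11. Ace also went opposite ways, with 6.20, SE 0.50, adjusted p = 2.21e-11.

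The genes Fibin, Cavin2 and Chrm2, the M2 muscarinic receptor, changed more upward than in adipogenesis. Cavin2 had 12.9, 6.45 and 6.85 CPM at AD 12 h and 13, 12.8 and 12.4 CPM at AD 72 h, a difference of 4.27, SE 0.40, adjusted p = 2.89e-09. Fibin differed by 4.31, SE 0.33, adjusted p = 5.01e-11. In Chrm2, at 0.151, 0 and 0.305 CPM at 12 h and 11.2, 11.4 and 11.8 CPM at 72 h of osteogenesis, the difference was 4.85, SE 0.55, adjusted p = 9.29e-08, and 20.2, 4.97 and 2.59 CPM at AD 12 h again showed replicate 1 apart, without which it was 4.12. Sema3d, a secreted guidance cue, rose in osteogenesis from 407 to 1227 CPM and differed by 4.52, SE 0.69, adjusted p = 1.06e-05, with AD 72 h at 283, 243 and 18.2 CPM, where replicate 3 was lowest. Without that replicate the difference in Sema3d was 3.26.

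Genes that fell in osteogenesis and not to the same extent in adipogenesis included Ccr1 (-4.70, SE 0.39, adjusted p = 2.69e-10), Dusp4 (-3.86, SE 0.30, adjusted p = 7.05e-11), Gch1, the first enzyme of tetrahydrobiopterin synthesis (-4.12, SE 0.52, adjusted p = 5.94e-07), and Gprc5a, a retinoic acid-induced receptor, which lost its call with edgeR (-2.64, adjusted p = 0.21). For each of these 4 genes the level at AD 12 h was at most 6.48 CPM, while at OS 12 h it was at least 27.5 CPM. Car4, a membrane carbonic anhydrase, had 6.18, 5.23 and 6.55 CPM at 12 h and 0, 0.156 and 0.151 CPM at 72 h of osteogenesis and 1.76, 3.31 and 4.07 CPM at AD 12 h and 66.1, 70.6 and 1.74 CPM at AD 72 h, a difference of -5.25, SE 0.89, adjusted p = 5.03e-05, or -6.81 without AD 72 h replicate 3. Of 14 immediate-early and MAPK feedback genes, 7 changed more downward in osteogenesis than in adipogenesis and 6 more than in chondrogenesis, with none upward, against 5.52 and 12.9% of all tested genes.

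**Figure D5:**
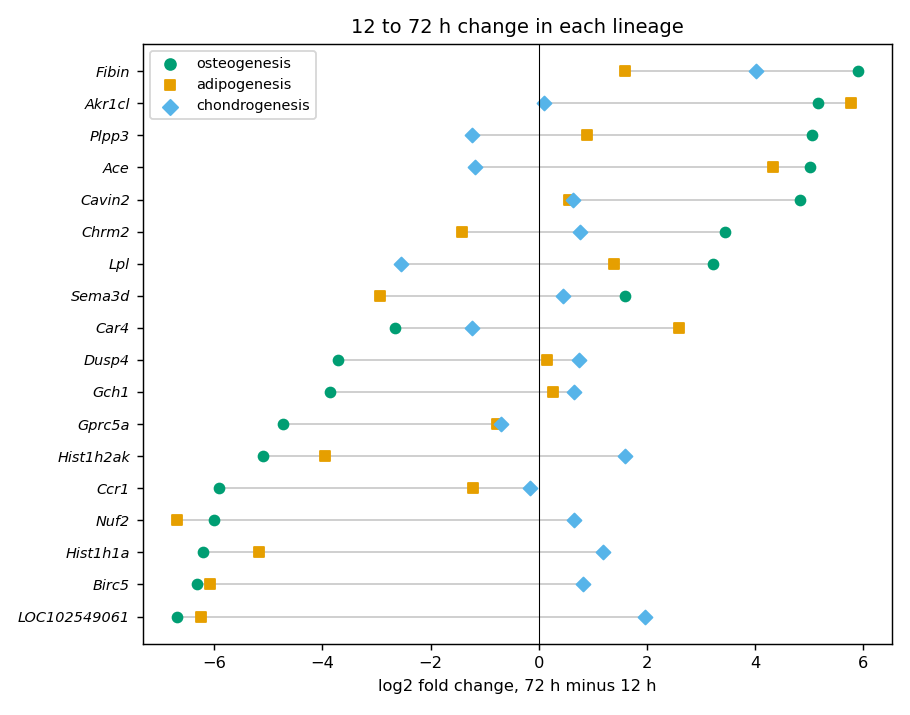
Fitted log2 fold change from 12 to 72 h in osteogenesis (green circles), adipogenesis (orange squares) and chondrogenesis (blue diamonds) for 18 of the genes with the largest differences between osteogenesis and another lineage. Birc5, Nuf2, LOC102549061 and the 2 histone genes fell in osteogenesis and adipogenesis and had values above 0 in chondrogenesis, and Plpp3 and Cavin2 rose by 5.04 and 4.83 in osteogenesis against 0.88 and 0.56 in adipogenesis.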

How the data were processed

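Sequencing libraries of total or messenger RNA from 30 samples (Ribo-Zero depletion and a strand-marking second strand per the labels, an mRNA kit per the study's methods) were processed by the authors. Trimmomatic, HISAT2 and StringTie are named in the submitters' processing notes without versions or roles. The genome build, and whether counting used strand, are not given in the sources used here, so overlapping and antisense genes cannot be told apart. The deposited values, 1 table per sample, are CPM, read counts scaled to a common total of all reads of a sample, although the tables are named for FPKM. Each value was a whole multiple of what 1 read is worth in its sample (100% of values, tolerance 0.01), which gave total reads of 6409225 to 6702790 in the 6 osteogenic samples at 12 and 72 h.

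The tables held 10803 rows with 9999 gene names, and rows of the 729 shared names were summed. One limma model (version 3.58.1 in R 4.3.3, trend) was fitted to log2(CPM + 1) of the 10 groups of 30 samples, for the 4363 genes that reached 1 CPM in 3 or more samples. A call needed a change of 1 log2 unit or more and an adjusted p (Benjamini-Hochberg, two-sided) below 0.05, the thresholds of the study. Changes of 3 lineages were compared as interaction contrasts. All p-values are limma's unless edgeR is named. Ratios on 1 to 3 reads carry exact 95% intervals of counting error.

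Alternatives were a pseudocount of 0.1, other filters, 3 other scalings, a fit on the compared samples, a replicate block, edgeR 4.0.16 (quasi-likelihood, TMM) on the recovered reads, rows of shared names apart, and each replicate left out. The steps were tested on simulated data. The members and the 29 gene lists were chosen with earlier results of these data known. Named genes are the 12 largest rises and falls with a mean of at least 10 CPM, up to 4 called genes per list, 12 TFs and the 5 largest lineage differences in each direction per comparison. Other genes named in the text were chosen after their values were seen. Promoters came from RefSeq (GRCr8) by symbol. Results of some genes that these rules name are not reported here.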

Additional observations from a re-analysis of the deposited data

Results flagged for a closer look

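The change from 12 to 72 h differed between osteogenesis and adipogenesis for 621 genes and between osteogenesis and chondrogenesis for 981 genes by the interaction test, and some of the largest differences in each direction are given here as log2 values. Against adipogenesis the osteogenic change was more positive for Chrm2 (4.85), Sema3d (4.52), Fibin (4.31) and Cavin2 (4.27). It was more negative for Car4 (-5.25), Ccr1 (-4.70), Gch1 (-4.12), Gprc5a (-3.96) and Dusp4 (-3.86). Against chondrogenesis it was more positive for Plpp3 (6.28), Ace (6.20), Lpl (5.76) and Akr1cl (5.07). It was more negative for LOC102549061 (-8.65), Hist1h1a (-7.39), Birc5 (-7.14), Hist1h2ak (-6.69) and Nuf2 (-6.65).

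The comparison with adipogenesis rests in part on single libraries. AD 12 h replicate 1 held 64.6% of its reads in the genes of the files, against 54.2 and 54.3% in the other replicates. Without AD 12 h replicate 1, 669 genes differed from adipogenesis, against 621. In AD 72 h, Car4 had 66.1, 70.6 and 1.74 CPM and Sema3d had 283, 243 and 18.2 CPM, with replicate 3 lowest in each. Without AD 72 h replicate 3 the differences were -6.81 for Car4 and 3.26 for Sema3d, and each was still called. The part of either library's share of reads in the genes of the files was not tested. With edgeR the difference from adipogenesis did not pass for Gprc5a (-2.64, adjusted p = 0.21), nor that from chondrogenesis for Akr1cl (8.44, adjusted p = 1.0).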

How the results depend on the processing

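With edgeR 797 genes were higher from 12 to 72 h against 422 with limma, and 902 genes were called by both. Under median-ratio scaling 245 genes changed more upward in osteogenesis than in adipogenesis, against 380. With 1 replicate left out at a time, the genes called from 12 to 72 h numbered 1005 to 1047 (421 to 446 higher, 577 to 601 lower). The differences from adipogenesis numbered 568 to 669 (316 to 435 and 216 to 278), and those from chondrogenesis 910 to 986 (376 to 414 and 530 to 572). A replicate block gave 1012, 614 and 981 genes, and deviations of same-numbered osteogenic samples correlated at -0.0072 to 0.0129. Those of same-numbered adipogenic samples correlated at 0.16, -0.051 and 0.14, and of chondrogenic ones at -0.046, -0.0023 and 0.078. Whether samples of the same number share a rat or a culture is not given by the labels and cannot be told from these values.

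Of 2313 values of the 138 named results under these alternatives, 2244 kept direction and call, 69 lost the call and 0 reversed. Calls were lost by 13 results under quantile normalization, 9 with edgeR, 8 each under median-ratio scaling and equal sums, 3 each with a pseudocount of 0.1 and with shared names apart, 2 without a filter, and 2 to 6 with 1 osteogenic replicate left out. At 3 reads per library, genes under 0.468 CPM were not detectable in every sample. The cause of these losses was not tested.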
